A study of Bos taurus with 6 samples.

Results

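Cyclic AMP is made by adenylyl cyclases and acts mainly through protein kinase A (PKA), and the genes described here encode both ends of this step. They are ADCY10, the soluble adenylyl cyclase, ADCY3, a membrane adenylyl cyclase, the catalytic subunits PRKACA and PRKACB, and the regulatory subunits PRKAR1A, PRKAR1B, PRKAR2A and PRKAR2B. They were taken by symbol, and all 8 were found, 1 entry each, among the 47249 genes of the deposited table. The study compared testes of Wandong cattle, a local Chinese breed, between immature calves aged 3 months and andrologically mature bulls aged 3 years. Each group had 3 untreated animals with 1 library of total RNA each, from which ribosomal RNA had been removed, and the labels give no genotype or line beyond the breed of the series. The tissue was a cross-section of whole testis, so each value mixes all its cell types.

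The inactive PKA holoenzyme holds a pair of regulatory subunits and a pair of catalytic subunits, and cyclic AMP that binds the regulatory subunits sets the catalytic subunits free to phosphorylate their targets. Regulatory subunits of type I (RI) are found largely in the cytosol, whereas those of type II (RII) are held at cell structures by A-kinase anchoring proteins. In the testis, gonadotropins act on Sertoli and Leydig cells through membrane cyclases and PKA. In sperm, ADCY10 answers to bicarbonate and calcium instead of G proteins, and it is known for its need in sperm motility and capacitation.

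The values are FPKM, the fragments of a gene divided by its length and by the fragments of the library, which allow levels of different genes to be compared per length but carry no read counts. The summed FPKM lay between 587066 and 1098720 per library, and 27164 to 38975 genes were above 0. The library labelled calf 3 stood apart from the other calves. Over 7 genes of brain and myelin (MBP, MOBP, MOG, GFAP, SNAP25, SYT1 and GAP43), the summed FPKM was 7959.9 in calf 3, between 10.5 and 11.05 in calf 1 and calf 2 and between 8.43 and 13.5 in bulls, and all 7 were highest in calf 3. Over the Leydig cell genes INSL3, CYP17A1, CYP11A1, HSD3B1 and STAR, it was 0.484 in calf 3, where CYP11A1 and the entries of CYP17A1 were at 0, against 1137 to 1399 in the other calves and 1461 to 2719 in bulls. Of 8 Sertoli cell genes, WT1 and GATA4 were at 0 in calf 3, and AMH, INHA and DHH (0.340, 0.766 and 0.239) were below all other libraries. SOX9 (13.7) lay below the other calves but above the bulls, INHBB (4.72) above the other calves, and CLDN11 was highest in calf 3 (429). The 6 genes of spermatogonia summed to 283 in calf 3, 78.9 and 93.7 in the other calves and 199 to 204 in bulls, but the members went different ways. In calf 3, most of the sum came from UCHL1 (201) and ID4 (50.2), and DDX4 was at 0.0152. DDX4 was at 14.0 and 20.2 in the other calves and at 156 to 160 in bulls, where it gave most of the sum. GFRA1, ZBTB16 and KIT were lower in every bull than in every calf. CLDN11, UCHL1 and ID4 were highest in the library with the high brain and myelin genes, whose part in those values was not tested. By these markers, the label of calf 3 as testis is in doubt, and the fold changes, shares and ratios below are therefore given with and without this library. The 7 genes of spermatocytes summed to 3.49 to 23.9 in calves and 284 to 341 in bulls. The 6 genes of round spermatids summed to 0.706 to 9.07 in calves and 431 to 475 in bulls. The 7 genes of elongating spermatids summed to 9.34 to 13.1 in calves and 14245 to 15808 in bulls. In such bulk RNA, fewer cells of a type and less RNA per cell cannot be told apart.

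Levels were compared as log2(FPKM + 1) with limma over the 18115 genes with an FPKM of 1 or more in 3 or more libraries, and a call required an adjusted p under 0.05 together with a log2 fold change, taken as bull minus calf, of 1 or more in size. All 8 genes passed this filter. ADCY10 passed it through the bulls alone, so that a difference was built into its passing. ADCY10, PRKAR1A and PRKAR2A rose in bulls and PRKACB fell, while ADCY3, PRKACA, PRKAR1B and PRKAR2B were not called. Called higher were thus 37.5% of the 8 genes, beside 35.7% of all genes tested, and called lower were 12.5%, beside 9.61%, so neither share stands out from the table as a whole. This background moves with how the libraries are scaled. Quantile normalization gave another split, in which 25.9% of all genes were called higher and 21.6% lower, the median log2 fold change was −0.13 and 2 of the 8 genes (25%) were called in each direction. The groups did not overlap in 4 of the 8 genes, whereas 67.4% of all genes tested were without overlap. Without calf 3, PRKAR2B was also called lower, which gave 3 higher and 2 lower genes (37.5% and 25%), beside 37.9% and 13.6% of all genes. Without it, 6 of the 8 genes did not overlap, beside 84.4% of all genes. The median log2 fold change of the 8 genes was 0.21 with calf 3 and 0.59 without it, against 0.43 over all genes in both cases.

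**Figure D1:**
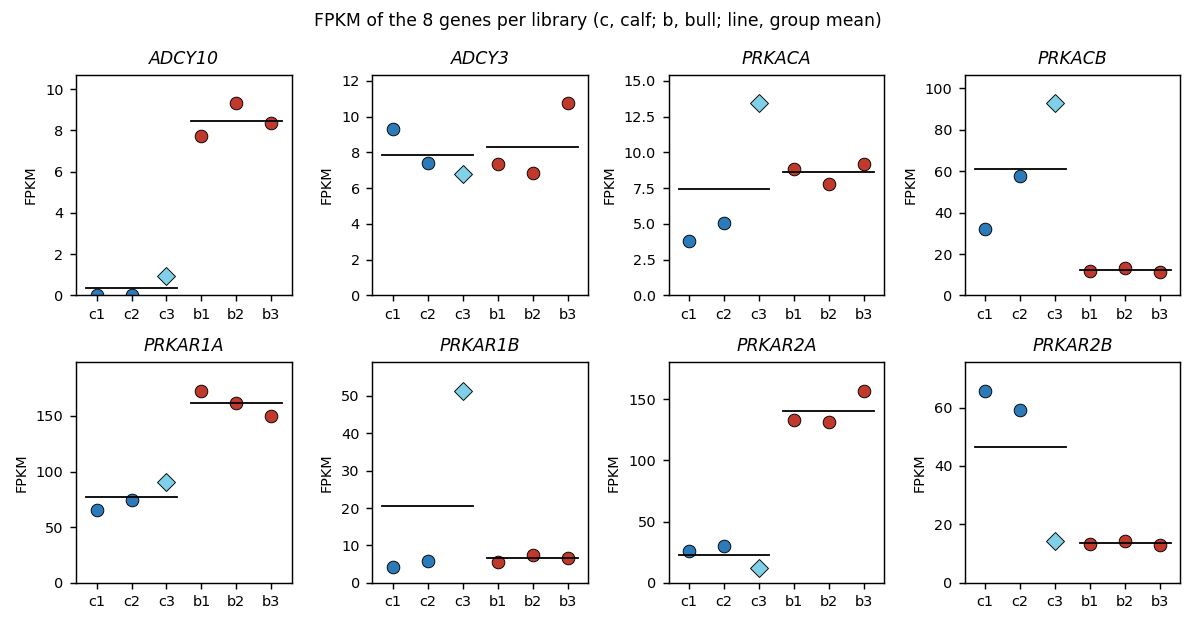
FPKM (vertical axis of each panel, linear and from 0) of the 8 genes in the 3 calf libraries (blue circles, calf 3 as a pale diamond) and the 3 bull libraries (red circles), with the mean of each group as a line. ADCY10, PRKAR1A and PRKAR2A lie higher in every bull than in every calf and PRKACB lower, whereas calf 3 lies far from the other calves in PRKACA, PRKAR1B and PRKAR2B.

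ADCY10 was nearly silent in calf testis and was found in every bull. ADCY10 (ENSBTAG00000001052, chromosome 3, 809356 to 843304) was listed at FPKM values of 0.0411, 0.0358 and 0.955 for calves 1 to 3, against 7.70, 9.31 and 8.37 for bulls 1 to 3. All bulls lay above all calves, and calf 3 lay above the other calves. Bulls had a mean of 8.46 ± 0.805 and calves of 0.344 ± 0.529 (SD, n = 3 each). ADCY10 thus rose by 2.88 on the log2 scale (standard error 0.29, limma, adjusted p = 0.000363) and by 3.18 once calf 3 was left out (standard error 0.15, adjusted p = 8.74e-06). Because 1 was added to each FPKM, this value understates the change of a gene that was so low in calves, and with 0.1 added instead it was 4.97. Among all genes tested, ADCY10 lay at percentile 9.17 to 27.6 in calves and at percentile 54.4 to 57.9 in bulls, a rank that does not depend on the scaling of a library. The entry of the table spans 33949 bases, whereas RefSeq gives ADCY10 a span of 106793 bases in ARS-UCD2.0, so the level rests on a gene model that covers only part of that locus. The spermatocyte and spermatid markers given above were high in the same bulls. The part of these markers' cells in the level of ADCY10 and of the other genes that rose was not tested.

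ADCY3, a membrane cyclase best known from the cilia of olfactory neurons, did not share this pattern. ADCY3 (ENSBTAG00000018705, chromosome 11, 74335471 to 74419717) gave 9.32, 7.41 and 6.81 FPKM in calves 1 to 3 and 7.37, 6.87 and 10.7 in bulls 1 to 3. The groups overlapped, with 1 bull above all calves and the other two within their range. Its log2 fold change was 0.063 (adjusted p = 0.828, standard error 0.23), a difference within the spread of either group. The sign turned to −0.021 without calf 3, to −0.070 after scaling the libraries by their median ratio and to −0.41 after quantile normalization. In bulls, the levels of ADCY10 and ADCY3 (8.33 ± 2.11, SD, n = 3) overlapped.

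Within a library, ADCY10 went from the least expressed of the 10 adenylyl cyclase genes in calf 1 and calf 2 to one of the leading members in bulls. It made up 0.101%, 0.0931% and 1.05% of the summed cyclase FPKM in calves 1 to 3, and 28.6%, 28.9% and 24.6% in bulls 1 to 3. The mean share was 27.4% ± 2.42 (SD, n = 3) in bulls, 26.9 percentage points above calves, or 27.3 without calf 3 (two-sided exact permutation test over the animals, p = 0.1 in both cases, and no smaller p can be reached with 3 animals against 3 or without calf 3). The share of ADCY3 was 19.3% to 22.8% in calf 1 and calf 2, 7.52% in calf 3 and 21.3% to 31.5% in bulls. The summed FPKM of all cyclases was 40.9 and 38.4 in calf 1 and calf 2, 90.6 in calf 3 and 26.9 to 34.1 in bulls.
Of 8 other membrane cyclases listed, 7 were tested. In bulls, 4 of them (57.1%) were called lower, beside 9.61% of all genes, and none was called higher, beside 35.7%, with the same counts without calf 3. The median log2 fold change was −1.19, and −1.11 without calf 3. ADCY9 fell from 9.18 ± 1.13 to 1.96 ± 0.197 FPKM (calves and bulls, SD, n = 3 each), a log2 fold change of −1.78 (adjusted p = 0.000319), and of −1.86 without calf 3. ADCY7 and ADCY5 also fell, with log2 fold changes of −1.64 and −1.44 (adjusted p = 0.00409 and 0.00168), or −1.37 and −1.26 without calf 3. ADCY1, ADCY2 and ADCY8 were not called, and without calf 3 they were at 0.56, 0.12 and −0.48. ADCY1, a cyclase of neurons and named here after its values were seen, was at 31.0 in calf 3, while the other 5 libraries lay between 1.01 and 2.91, and calf 3 is the library with the brain markers described above. Their part in that value was not tested.

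**Figure D2:**
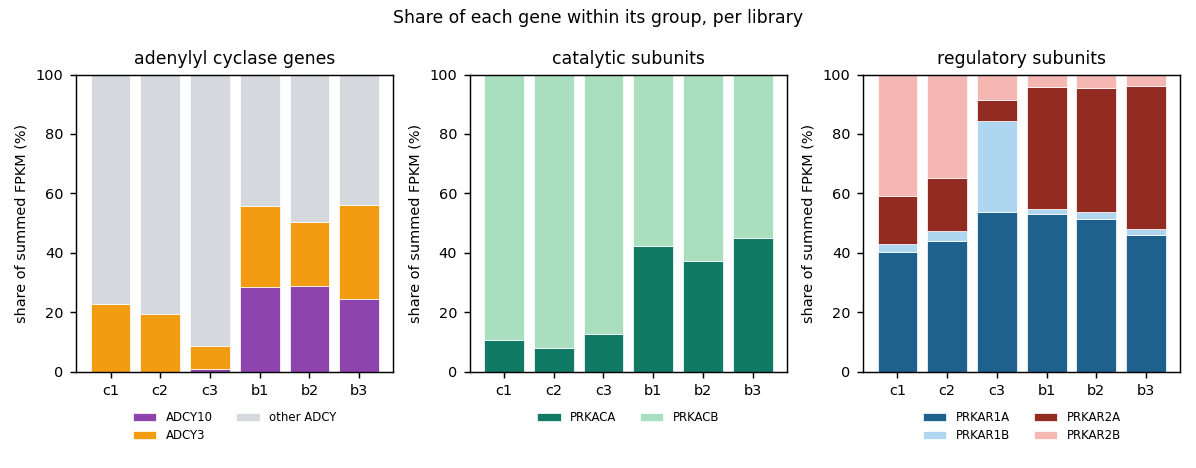
Share of the summed FPKM (%) that each gene takes in the adenylyl cyclases (left), the catalytic subunits (middle) and the regulatory subunits (right), with 1 bar for each of the 3 calf (c1 to c3) and 3 bull (b1 to b3) libraries. ADCY10 rises to between 24.6% and 28.9% in bulls, and PRKACA takes 37.4% to 45.2% of the catalytic FPKM in bulls against 8.10% to 12.6% in calves. Against calf 1 and calf 2, PRKAR2A takes the place of PRKAR2B among the regulatory subunits, whereas both are low in calf 3.

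The catalytic subunits parted ways, since PRKACB fell in bulls and PRKACA was not called. PRKACB (ENSBTAG00000011953, chromosome 3, 59884333 to 60026329) encodes the beta catalytic subunit. Its FPKM was 32.1, 57.8 and 92.8 in calves 1 to 3 and 12.1, 13.1 and 11.1 in bulls 1 to 3. The bulls were close together and all below the calves, which spread widely with calf 3 at the top. PRKACB fell with a log2 fold change of −2.12 (adjusted p = 0.00417, standard error 0.38), and of −1.76 without calf 3 (adjusted p = 0.000865), when the mean of calf 1 and calf 2 was 3.72 times that of the bulls. PRKACB stayed called under each alternative tried, with log2 fold changes from −2.77 to −1.75.

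PRKACA (ENSBTAG00000006642, chromosome 7, 11592331 to 11610330) encodes the alpha catalytic subunit, of which male germ cells make their own form from an alternative first exon. As FPKM, it was at 3.84, 5.09 and 13.4 in calves 1 to 3, and 8.81, 7.81 and 9.16 in bulls 1 to 3. Calf 3 was the highest of all libraries, and calf 1 and calf 2 were the lowest. With all libraries, bulls exceeded calves by 0.35 on the log2 scale (standard error 0.42, adjusted p = 0.511), and the value was −0.13 after quantile normalization (adjusted p = 0.805). Without calf 3, it was 0.82 (standard error 0.16, adjusted p = 0.00362) and was too small for a call, although all bulls lay above both remaining calves. Calf 3, the top library for PRKACA and PRKACB alike, is the one with high brain and myelin markers, and their part in these levels was not tested.

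The balance between the catalytic genes differed in every library between the groups. PRKACA accounted for 10.7%, 8.10% and 12.6% of the catalytic FPKM in calves 1 to 3 and for 42.2%, 37.4% and 45.2% in bulls 1 to 3. The groups did not overlap, calf 3 included, and the mean share in bulls, 41.6% ± 3.95 (SD, n = 3), lay 31.1 percentage points above calves, or 32.2 without calf 3 (two-sided exact permutation test, p = 0.1 in both cases, again the least reachable). PRKACB remained the more abundant of both per length in every library, also in bulls, where its FPKM was 12.1 ± 0.984 (SD, n = 3) against 8.59 ± 0.704 (SD, n = 3) for PRKACA. The summed catalytic FPKM was 35.9, 62.9 and 106 in calves 1 to 3 and 20.3 to 20.9 in bulls.
The catalytic subunits are also held by small inhibitor peptides encoded by PKIA, PKIB and PKIG. PKIB rose from 4.89 ± 3.24 to 42.8 ± 8.14 FPKM (SD, n = 3 each), a log2 fold change of 3.02 (adjusted p = 0.00121), and of 3.44 without calf 3. PKIG rose from 15.7 ± 1.16 to 69.8 ± 5.86 (SD, n = 3 each), a log2 fold change of 2.08 (adjusted p = 8.42e-05), and of 2.12 without calf 3. PKIA was at 9.72 to 13.7 in calves and 10.8 to 14.4 in bulls and was not called. Of these 3 inhibitor genes, 2 (66.7%) were thus called higher, beside 35.7% of all genes, and none lower, beside 9.61%, with the same counts without calf 3.

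Among the regulatory subunits, both alpha genes rose in bulls. PRKAR2A (ENSBTAG00000014205, chromosome 22, 51085591 to 51155609) encodes RII alpha, the subunit that is anchored along the sperm tail. Its FPKM was 26.0, 29.9 and 11.9 in calves 1 to 3 and 133, 131 and 157 in bulls 1 to 3. Every bull lay above every calf, and calf 3 was the lowest library. PRKAR2A rose by 2.67 on the log2 scale (standard error 0.35, adjusted p = 0.0011), and by 2.29 without calf 3 (adjusted p = 1.7e-05), when the mean of the bulls was 5.02 times that of calf 1 and calf 2. PRKAR2A was called under each alternative tried, between 1.96 and 2.92.

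PRKAR1A (ENSBTAG00000008621, chromosome 19, 61704501 to 61718579), which encodes RI alpha, had the highest mean of the 8 genes in bulls, although PRKAR2A was above it in bull 3. Its FPKM was 65.04, 74.6 and 90.6 in calves 1 to 3 and 173, 162 and 150 in bulls 1 to 3, again without overlap. This rise of 1.07 on the log2 scale (adjusted p = 0.00383, standard error 0.19) was just past the size required for a call and lay 0.65 above the median of all genes, and without calf 3 it was 1.20 (adjusted p = 0.000162). The call of PRKAR1A depends on the scaling of the libraries. Its log2 fold change was 0.93 (adjusted p = 0.00781) after scaling by the median ratio and 0.37 (adjusted p = 0.123) after quantile normalization, so PRKAR1A was not called in either case, nor without calf 1 (0.96). By rank, PRKAR1A was at percentile 96.8 to 97.8 of the genes tested in calves and 97.7 to 98.1 in bulls, and the groups overlapped.

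The beta subunits of the regulatory group differed most between calf 3 and the other calves. PRKAR2B (ENSBTAG00000014958, chromosome 4, 48154065 to 48255759) encodes RII beta, a subunit typical of brain, fat and gonadal endocrine cells. Its FPKM was 65.8, 59.3 and 14.4 in calves 1 to 3, and 13.4, 14.4 and 12.8 in bulls 1 to 3. Calf 3 thus lay next to the bulls, and the groups overlapped. With all libraries, PRKAR2B was not called (log2 fold change −1.45, standard error 0.57, adjusted p = 0.0753). Without calf 3, PRKAR2B fell by 2.13 on the log2 scale (standard error 0.11, adjusted p = 1.32e-05), and the mean of calf 1 and calf 2 was 4.62 times that of the bulls. It was called lower after quantile normalization (−2.05, adjusted p = 0.0303). Beside it stand the Sertoli cell genes, whose 8 markers summed to 1759.6 and 1459 in calf 1 and calf 2 and 187 to 223 in bulls. The sum was 449 in calf 3, of which CLDN11 gave 429. In calf 1 and calf 2, most of the sum came from AMH and INHA. CLDN11 and INHBB were higher in every bull than in those calves, and the other Sertoli cell genes were lower. The Leydig cell genes summed to 1399 and 1137 in calf 1 and calf 2, 0.484 in calf 3 and 1461 to 2719 in bulls. The brain and myelin genes summed to 7959.9 in calf 3, where PRKAR2B was at 14.4, and to 8.43 to 13.5 in the other libraries. The part of Sertoli, Leydig and brain cells in the level of PRKAR2B was not tested.

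PRKAR1B (ENSBTAG00000046142, chromosome 25, 41917307 to 41990437), which encodes RI beta, a subunit typical of neurons, was high in calf 3 alone. Its FPKM was 4.10, 5.76 and 51.4 in calves 1 to 3, and 5.59, 7.43 and 6.59 in bulls 1 to 3. Calf 3 was 10.4 times the mean of calf 1 and calf 2, while the other 5 libraries lay within a narrow range. Bulls and calves differed by −0.70 on the log2 scale (standard error 0.88, adjusted p = 0.531) with all libraries and by 0.35 (adjusted p = 0.131) without calf 3, and no call was made in either case. The brain and myelin markers were high in the same library, and their part in the level of PRKAR1B was not tested.

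**Figure D3:**
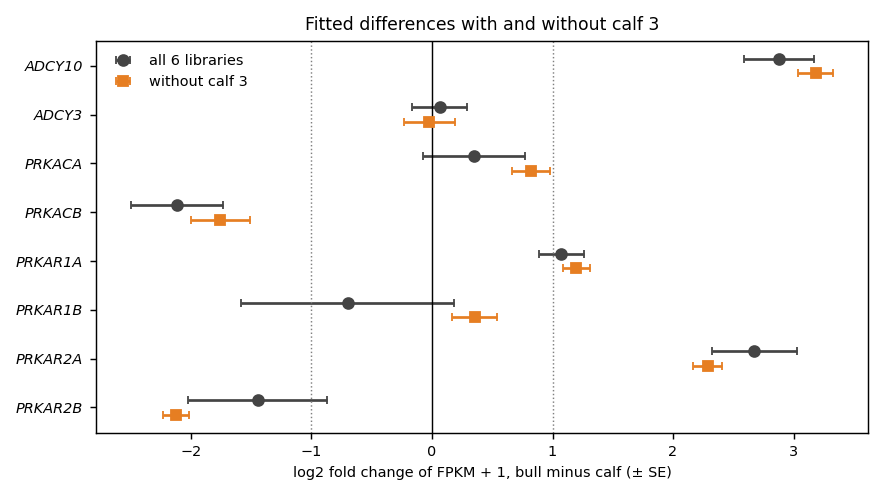
Log2 fold change of FPKM + 1 (bull minus calf, horizontal axis) of the 8 genes with all 6 libraries (grey circles) and without calf 3 (orange squares), with the standard error as bars and dotted lines at the size required for a call. ADCY10, PRKACB, PRKAR1A and PRKAR2A keep their side, PRKAR2B moves from −1.45 to −2.13 and PRKAR1B changes sign.

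Within the regulatory subunits, the share of type II overlapped between the groups with all libraries. PRKAR2A and PRKAR2B together made up 57.0%, 52.6% and 15.7% of the regulatory FPKM in calves 1 to 3 and 45.1%, 46.2% and 52.1% in bulls 1 to 3. The bulls exceeded the calves by 6.03 percentage points (two-sided exact permutation test, p = 1), and without calf 3 they lay 7.03 percentage points below them, given as −7.03 (two-sided exact permutation test, p = 0.2). Without calf 3, all bulls lay below both remaining calves, although bull 3 (52.1%) and calf 2 (52.6%) were close. Against calf 1 and calf 2, what changed was the member that supplied most of type II. PRKAR2B made up 40.9% and 35.0% of the regulatory FPKM in calf 1 and calf 2, and PRKAR2A 16.2% and 17.6%. In calf 3, PRKAR2B was at 8.57% and PRKAR2A at 7.09%. In bulls, PRKAR2B was at 3.93% to 4.58% and PRKAR2A at 41.0% to 48.1%. PRKAR1A kept a large share in every library, from 40.4% to 53.8%, and PRKAR1B was at 1.72% to 3.39% except in calf 3 (30.5%).

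Regulatory genes gained on catalytic genes in bulls. The ratio of the summed regulatory to the summed catalytic FPKM was 4.48, 2.70 and 1.58 in calves 1 to 3 and 15.6, 15.1 and 16.1 in bulls 1 to 3. Every bull lay above every calf, with means of 15.6 ± 0.495 and 2.92 ± 1.46 (SD, n = 3 each) (two-sided exact permutation test, p = 0.1, again the least reachable). This difference of 12.7 was 11.99 without calf 3 (p = 0.1 in the same exact test) and lay between 11.99 and 13.4 with each library left out in turn. The regulatory sum was 161 to 169.6 in calves and 315 to 326 in bulls. These are ratios of RNA per length and not of protein, and a ratio within a library does not change when the whole library is multiplied by a constant. Shares and ratios were not computed after quantile normalization, which can change them.

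In bulls, the order of the levels was PRKAR1A (162 ± 11.5), PRKAR2A (140.4 ± 14.3), PRKAR2B (13.5 ± 0.830), PRKACB (12.1 ± 0.984), PRKACA (8.59 ± 0.704), ADCY10 (8.46 ± 0.805), ADCY3 (8.33 ± 2.11) and PRKAR1B (6.53 ± 0.921), as FPKM with SD and n = 3. Each neighbour in this order overlapped with the next over the bulls, except that PRKAR2A lay far above PRKAR2B and PRKACB lay above PRKACA. In calf 1 and calf 2, PRKAR1A and PRKAR2B shared the lead with overlapping values of 59.3 to 74.6, PRKACB followed with 32.1 and 57.8, and PRKAR2A was next with 26.0 and 29.9. ADCY3, PRKAR1B and PRKACA lay between 3.84 and 9.32 in those calves, and ADCY10 was last. Calf 3 had another order, led by PRKACB (92.8) and PRKAR1A (90.6), with PRKAR1B (51.4) in the next place.

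The table of transcripts holds 23 entries for the 8 genes, and 10 of them passed the same filter. Of these 10, 3 were called higher in bulls and 3 lower, beside 34.8% and 9.37% of all 23212 transcripts tested. The 3 called lower are all entries of PRKACB and do not stand for separate genes. Without calf 3 the counts were 3 and 4. The shares over all transcripts were not computed for that setting, so no background stands beside these 2 counts. ADCY10 and PRKAR2A had a single entry each, which repeats the values of the gene, and that of ADCY10 passed the filter through the bulls alone. For PRKACA, PRKAR1A and PRKAR2B a single entry carried at least 95.6% of the FPKM in each library. All 3 tested entries of PRKACB fell, with log2 fold changes of −2.14 for PRKACB-201 (adjusted p = 0.00507), −1.41 for PRKACB-205 (adjusted p = 0.0212) and −1.12 for PRKACB-206 (adjusted p = 0.00363), or −1.75, −1.47 and −1.07 without calf 3. PRKACB-205 was under an FPKM of 1 in all bulls and passed the filter through the calves alone. It lost its call with any bull left out (adjusted p from 0.0645 to 0.0746) and without the filter (adjusted p = 0.0523). PRKACB-201 made up 77.8% to 84.0% of the PRKACB value in each library, so the main entry was the same in calves and bulls. PRKACB-203 was at 4.61 in calf 3 and at 0.0223 or less in the other 5 libraries, and was named after its values were seen. Of PRKACA, PRKACA-201 made up 97.3% to 99.9%, and which entry stands for the germ cell form is not given in the table. An antisense entry, PRKACA-AS1, had an FPKM of 0.196 in bull 2 and was listed at 0 in the other libraries. The libraries kept the strand, but whether the counting used it is not given in the sources used here. PRKAR1B-202 was at 50.1 in calf 3 and at 3.15 to 4.797 in the other libraries.

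The other genes of the pathway were described with 8 lists of 76 genes, which had 73 entries in the table. Of the 66 tested, 22 (33.3%) were called higher in bulls and 9 (13.6%) lower, shares near those of all genes. Without calf 3 the counts were 26 and 12 (39.4% and 18.2%), beside 37.9% and 13.6% of all genes. After quantile normalization, 19 were higher and 18 lower, beside 25.9% and 21.6% of all genes, so the split between both directions depends on the scaling. The median log2 fold change was 0.42, and 0.59 without calf 3, against 0.43 over all genes. Of the 22 genes called higher, 7 were under an FPKM of 1 in all calves and passed the filter through the bulls alone, ROPN1, AKAP3, AKAP4, SLC26A8 and SLC9C1 among them. Of the 9 called lower, PDE3A, PDE7B and RAPGEF4 passed it through the calves alone. As for ADCY10, a difference was built into the passing of these genes. ROPN1L, CABYR, SPHKAP and POPDC3 reached an FPKM of 1 in a single calf, so they too needed the bulls to pass. Likewise, ADCY7 and ADCY5 reached it in only some of the bulls and needed the calves. The shares called in the single lists count all these genes, so those shares are not independent of the filter.

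**Figure D4:**
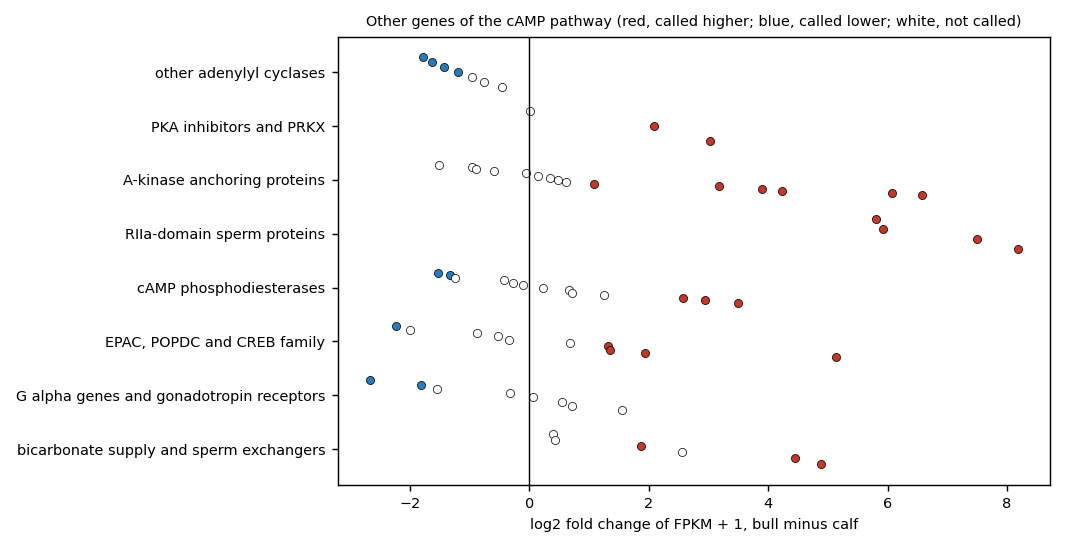
Log2 fold change of FPKM + 1 (bull minus calf, horizontal axis) of the 66 tested entries of the 8 lists of pathway genes, with 1 circle per entry, red where called higher in bulls, blue where called lower and white where not called. The proteins with an RIIa domain lie far to the right, between 5.80 and 8.18, and the other adenylyl cyclases lie between −1.78 and −0.45.

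Among the pathway genes tested, the log2 fold changes were largest for sperm proteins with an RIIa domain and for the anchors AKAP4 and AKAP3. The RIIa domain is the fold by which RII docks on anchoring proteins, and these sperm proteins bind anchors in the same way. All 4 tested (100%) rose in bulls, beside 35.7% of all genes, and also without calf 3, beside 37.9%. As given above, ROPN1, ROPN1L and CABYR needed the bulls to pass the filter, so this share is not independent of the filter. Their median was 6.72 (6.52 without calf 3). ROPN1 had an FPKM of 0.294, 0.522 and 0.0345 in calves 1 to 3 and of 361, 355 and 388 in bulls 1 to 3, a log2 fold change of 8.18 (adjusted p = 2.76e-06), and of 8.04 without calf 3. ROPN1L and CABYR had log2 fold changes of 7.50 and 5.93 (adjusted p = 7.18e-06 and 1.53e-05), or 7.35 and 5.69 without calf 3. Of 15 A-kinase anchoring proteins tested, 6 (40%) rose, beside 35.7% of all genes, and none fell, beside 9.61%. Without calf 3 these counts were 6 and 2 (40% and 13.3%), beside 37.9% and 13.6% of all genes. After quantile normalization they were 5 and 4, beside 25.9% and 21.6%. AKAP4 and AKAP3, the anchors of the fibrous sheath of the sperm tail, rose from 0.695 ± 0.204 and 0.539 ± 0.425 in calves to 160.3 ± 18.5 and 100.1 ± 2.24 in bulls (SD, n = 3), log2 fold changes of 6.57 and 6.08 (adjusted p = 3.62e-06 and 1.11e-05), or 6.48 and 5.86 without calf 3. SPHKAP, an anchor that binds RI, had 4.24 (adjusted p = 4.69e-05), or 4.48 without calf 3.
The 9 anchors not called lay between −1.52 and 0.61 on the log2 scale, and the median of the list was 0.48 (0.70 without calf 3). AKAP12, named after its values were seen, was called with all libraries (1.08) but not without calf 3 (0.70). It was also not called after quantile normalization (0.47), after median-ratio scaling (0.93) or with the replicate number as a block (adjusted p = 0.0559). The spermatocyte and spermatid markers were high in these bulls too.

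Phosphodiesterases break down cyclic AMP, and of 13 tested 3 (23.1%) rose and 2 (15.4%) fell, beside 35.7% and 9.61% of all genes. Without calf 3, 6 (46.2%) rose and 1 (7.69%) fell, beside 37.9% and 13.6% of all genes. The median log2 fold change was 0.23, and 0.83 without calf 3. PDE10A rose from 3.61 ± 1.42 to 49.7 ± 1.3 FPKM (SD, n = 3 each), a log2 fold change of 3.50 (adjusted p = 7.65e-05), and of 3.74 without calf 3. PDE4A and PDE7A had 2.95 and 2.58 (adjusted p = 0.00150 and 0.000131), or 3.43 and 2.73 without calf 3. PDE3A and PDE7B fell, with −1.52 and −1.32 (adjusted p = 0.00414 and 0.0401), or −1.27 and −0.84 without calf 3. PDE7B lost its call without calf 3, without calf 1 (adjusted p = 0.0656), with any bull left out (adjusted p from 0.0952 to 0.124) and without the filter (adjusted p = 0.0699). With array weights (−0.87), PDE7B was not called either.
Another list held the exchange factors (EPAC), the POPDC genes and the CREB family with its coactivators. Of its 10 tested genes, 4 (40%) rose and 1 (10%) fell, beside 35.7% and 9.61% of all genes. The median was 0.17 with and without calf 3. The counts were 3 and 2 (30% and 20%) without calf 3, beside 37.9% and 13.6% of all genes. After quantile normalization they were 2 and 4, beside 25.9% and 21.6%. CREM, a transcription factor of the cyclic AMP response known as a regulator of spermatid genes, rose from 3.11 ± 0.399 to 142 ± 5.73 FPKM (SD, n = 3 each), a log2 fold change of 5.13 (adjusted p = 4.27e-06), and of 5.08 without calf 3. POPDC3 and ATF1 had 1.94 and 1.35 (adjusted p = 0.0168 and 0.0202), or 2.21 and 0.94 without calf 3. POPDC3 lost its call without calf 1, calf 2 or bull 3 (adjusted p from 0.0532 to 0.0636). ATF1 lost it without calf 3, after quantile normalization (adjusted p = 0.206) and with any bull left out (adjusted p from 0.0636 to 0.072). With array weights (0.97), ATF1 was not called either. RAPGEF4, an exchange factor that cyclic AMP activates without PKA, fell with −2.23 (adjusted p = 0.0481) and with −1.31 without calf 3, which was at an FPKM of 22.2 where the other calves were at 2.38 and 2.51. Its call was lost with any bull left out (adjusted p from 0.119 to 0.133) and without the filter (adjusted p = 0.0745).

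Upstream of the membrane cyclases, the G protein genes and gonadotropin receptors had 8 entries tested, none of which rose, beside 35.7% of all genes, and 2 (25%) of which fell, beside 9.61%. Without calf 3, 3 (37.5%) fell, beside 13.6% of all genes, and the median was −0.39 instead of −0.13. Both entries that fell with all libraries belong to GNAS, the stimulatory G protein locus, whose overlapping products may share reads. The larger entry (ENSBTAG00000052413) fell from 320, 278 and 564 in calves 1 to 3 to 54.7, 58.3 and 59.6 in bulls 1 to 3, a log2 fold change of −2.66 (adjusted p = 0.000571), and the other (ENSBTAG00000047223) had −1.82 (adjusted p = 0.0186). Without calf 3 they had −2.36 and −1.29. The smaller entry lost its call without bull 1 or bull 2 (adjusted p = 0.0684 and 0.0687). FSHR, the receptor of follicle-stimulating hormone on Sertoli cells and named after its values were seen, was at 37.8, 34.3 and 0 in calves 1 to 3 and at 7.24, 7.63 and 8.74 in bulls 1 to 3. It was called lower without calf 3 alone (−2.06, adjusted p = 2.67e-05).
The exchangers and enzymes of bicarbonate, the activator of ADCY10, had 6 genes tested, of which 3 (50%) rose, beside 35.7% of all genes, and none fell, beside 9.61%. Without calf 3, 5 (83.3%) rose, beside 37.9%, and the median was 2.85 instead of 2.21. SLC26A8, an anion exchanger of sperm, was at 0.580, 0.653 and 0.0913 in calves 1 to 3 and at 43.3, 37.2 and 41.7 in bulls 1 to 3, a log2 fold change of 4.88 (adjusted p = 1.68e-05), and of 4.69 without calf 3. SLC9C1, a sodium and proton exchanger of sperm, and SLC26A6 had 4.45 and 1.87 (adjusted p = 7.87e-06 and 0.000592), or 4.41 and 2.05 without calf 3.

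For each of the 8 genes, the 3 genes with a symbol whose log2(FPKM + 1), centred on the mean of the 6 libraries, had the smallest root mean square difference from it were named. For ADCY10 these were KCNK4, LYRM7 and ZCCHC12 (0.067, 0.089 and 0.11 log2 units). KCNK4, a potassium channel, had nearly the same levels too, at 0.0620, 0.0510 and 0.827 in calves 1 to 3 and 8.13, 8.61 and 8.63 in bulls 1 to 3. PRKAR2A was nearest to TTC23, ESX1 and RIOX2 (0.095 to 0.11), and PRKAR1A to EPN1, IMMT and TBCEL (0.034 to 0.050). PRKAR2B was nearest to PTPRC, FAM102B and RPS24 (0.074 to 0.10), of which RPS24 has near-identical copies that may share reads. In PTPRC, the leukocyte antigen CD45, calf 3 (3.78) also lay with the bulls (2.77 to 3.42) and apart from calf 1 and calf 2 (19.95 and 17.8). PRKACB was nearest to HEPACAM, TP53BP2 and TPP1 (0.12 to 0.19), and PRKACA to ATRN, PIP5K1C and CACNG5 (0.073 to 0.091). PRKAR1B was nearest to PAQR8, NPTXR and SULT4A1 (0.068 to 0.13), all of which were highest in calf 3, as were the genes nearest to PRKACB and PRKACA. ADCY3 was nearest to ZCCHC9, ADAP2 and HHLA2 (0.082 to 0.11). These distances rest on 6 libraries in 2 groups and are given as a description. The genes were picked by likeness over the same libraries, so the place of calf 3 that they share follows from the choice.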

How the data were processed

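For genes and for transcripts, the authors deposited FPKM values of each of the 6 libraries, without counts. According to the Methods, reads matching ribosomal RNA were removed with Bowtie2, the others were mapped with TopHat2 and transcripts were assembled with StringTie, and the tool behind the gene values is not named. The Methods name UMD 3.1.1, but 99.4% of 16434 symbols overlapped the locus of that symbol in ARS-UCD2.0 (RefSeq), as did all 8 genes described here. Positions are those of the table. Among the lowest genes, at most 3.60% shared the commonest ratio to calf 1, so whole reads were not recovered and the depth behind single values is unknown.

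Values were tested as log2(FPKM + 1) with limma 3.58.1 in R 4.3.3 (trended empirical Bayes, two-sided, Benjamini-Hochberg over all features passing the filter). The Methods name edgeR, which needs counts, for circular RNAs, and it was not used here. Shares and ratios were tested by exact permutation of the labels. The procedure was run on simulated data drawn with the means and spread of the bulls alone, so it does not cover the spread of the calves. It recovered 185 of 200 changed genes and 163 of 200 changed transcripts, with 2 and 6 false calls. Replicates are separate animals by the labels. The genes and lists were chosen with earlier results of these data known. Named were the 8 genes, their transcripts past the filter, the 3 most changed called genes per list and direction, and the 3 nearest genes. Alternatives were an added 0.1, no filter, 2 other scalings, array weights, no trend, a replicate block and each library left out. Figures were drawn with matplotlib 3.10.9. Sequences and circular RNAs were not analysed here. A marker gene is not reported here.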

Additional observations from a re-analysis of the deposited data

How the results depend on the processing

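Of the 8 genes, 3 to 5 were called under each alternative. With the replicate number as a block in the fit, 3 were higher and 1 lower, beside 6437 and 1691 of all 18115 genes. Over these 18115 genes, the alternatives called 4683 (quantile normalization) to 6867 (array weights) higher. They called 1218 (without bull 1) to 3917 (quantile normalization) lower. Without the filter, 6984 of 44657 genes were higher and 1581 lower. Animals that shared a number did not deviate together (correlations of 0.025 to 0.034 across genes), so the numbers are not taken as pairs, although each calf correlated best with the bull of its own number. The block changed no call among the 8 genes. After quantile normalization, PRKAR1A (0.37) lost its call, PRKAR2B (−2.05) gained one, and ADCY3 (−0.41) and PRKACA (−0.13), neither called, changed sign. After median-ratio scaling, PRKAR1A (0.93) lost its call and ADCY3 was at −0.070. With array weights, PRKAR2B was called (−2.08), and ADCY3 (−0.042) and PRKAR1B (0.31) changed sign. With each library left out in turn, ADCY3 lay between −0.11 and 0.18, PRKAR1A between 0.96 and 1.20, PRKAR1B between −1.33 and 0.35 and PRKAR2B between −2.13 and −1.07. The difference in the type II share lay between −7.03 and 13.7 percentage points. Among transcripts not called, the main ADCY3 transcript (ENSBTAT00000032950) was −0.37 after quantile normalization and −0.036 without bull 3, PRKACA-201 was −0.19 after quantile normalization, and PRKAR1B-202 was 0.23 with array weights and 0.31 without calf 3. With a library left out, they ranged from −0.036 to 0.27 for ADCY3 and from −1.50 to 0.31 for PRKAR1B-202. The sums over transcripts gave the same shares as the table of genes. The causes of these changes were not tested, except that leaving out a library leaves fewer samples. FPKM without counts gives no counting error, which limits values below 1, such as those of ADCY10 in calves.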
